A study of Mus musculus with 24 samples.

Results

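The integrin, sarcoglycan, syntrophin and annexin genes, with 8 single genes of the dystrophin complex and the fibre membrane (Dmd, Utrn, Dag1, Dtna, Dysf, Cav3, Vcl and Ahnak), were followed in tibialis anterior muscle after loss of the histone H3.3 chaperone HIRA from muscle fibres. Genes were taken by the symbol of their array probe: 75 probe rows carried a matching symbol and stood for 59 of the 17742 genes measured. Dysf was not analysed here. The muscle came from mice aged 6 months on a mixed C57BL6/J and 129S1/SvImJ background, 4 HiraCKO animals with the genotype Myf6 cre/+; Hira flox/- and 4 control animals with the genotype Myf6 cre/+; Hira flox/+. There were 24 arrays, 3 hybridisations for every animal. Both groups carried the Cre recombinase at the Myf6 locus, which is active in muscle fibres, so control fibres kept 1 intact copy of Hira, while all cells of HiraCKO animals, not fibres alone, carried 1 null copy.

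Muscle fibres are tied to their basement membrane by a pair of transmembrane systems. In the dystrophin complex, dystroglycan binds laminin outside the fibre and dystrophin binds actin inside it, the sarcoglycans stabilise the complex, and the syntrophins and dystrobrevins dock signalling proteins on it. Integrins are heterodimers of an alpha and a beta chain that bind laminin, collagen, fibronectin or counter-receptors on other cells, and vinculin links their adhesion sites to actin. Annexins bind phospholipids when calcium enters a torn fibre and take part, with dysferlin and its partner AHNAK, in resealing the membrane.

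Values are the authors' linear probe intensities, given for an animal as the geometric mean of its 3 hybridisations, and differences are HiraCKO minus control on the log2 scale with the SE of limma's fit over all 17742 genes. A gene passed the test at an adjusted p (Benjamini-Hochberg over all genes) under 0.05. The number of animals, 4 per group, limits the precision. Hira itself did not pass: its log2 intensity was 8.82 ± 0.35 in HiraCKO and 8.97 ± 0.11 in control muscle (SD, n = 4 each; limma, adjusted p = 0.623), and the position of its probe relative to the deleted part is not known here, and the genotypes are therefore not tested by it. HiraCKO animal 2 lay above all control animals. Whole muscle also holds vessels, nerve, connective tissue and blood cells, and in such a sample fewer cells of a type and less RNA per cell cannot be told apart. All 6 measured fibre markers (of 10 listed) were above the dim level, with a summed intensity of 1617260 to 2445570 in HiraCKO and 1990070 to 2540110 in control animals.

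Of the 59 genes, 7 rose in HiraCKO muscle and 3 fell, beside 4.28% higher and 5.01% lower among all genes tested. Vinculin (Vcl), the melusin gene Itgb1bp2, the integrin chains Itgav and Itga9, the syntrophin Sntb2 and the annexins Anxa4 and Anxa7 rose. The integrin chains Itga4 and Itgax and the scaffold gene Ahnak fell. The 10 genes make up 16.9% of the 59, against 9.28% of all genes. The median log2 difference of the 59 genes was -0.05, against -0.07 over all genes. The groups of animals did not overlap in 16 of the 59 genes (27.1%; 6 higher and 10 lower), against 17.5% of all genes (7.24% higher and 10.2% lower). In 9 genes (Anxa10, Anxa13, Itga2, Itga2b, Itgb3bp, Itgb8, Sgcd, Sntg1 and Sntg2) the level was dim in both groups, at or under 125, the highest 5th percentile of any array. The other 50 lay above it in both groups. Under quantile normalization 7 genes rose and 7 fell. Without HiraCKO animal 3, or without control animal 1, 4 rose and 2 fell, and without control animal 2, 5 rose and 5 fell. The animal numbers fall in a lower and a higher series, each with 2 animals per group. All 10 genes kept their sign within each series, but in the lower series alone 0 rose and 0 fell, and in the higher series alone 3 rose and 1 fell.

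**Figure D1:**
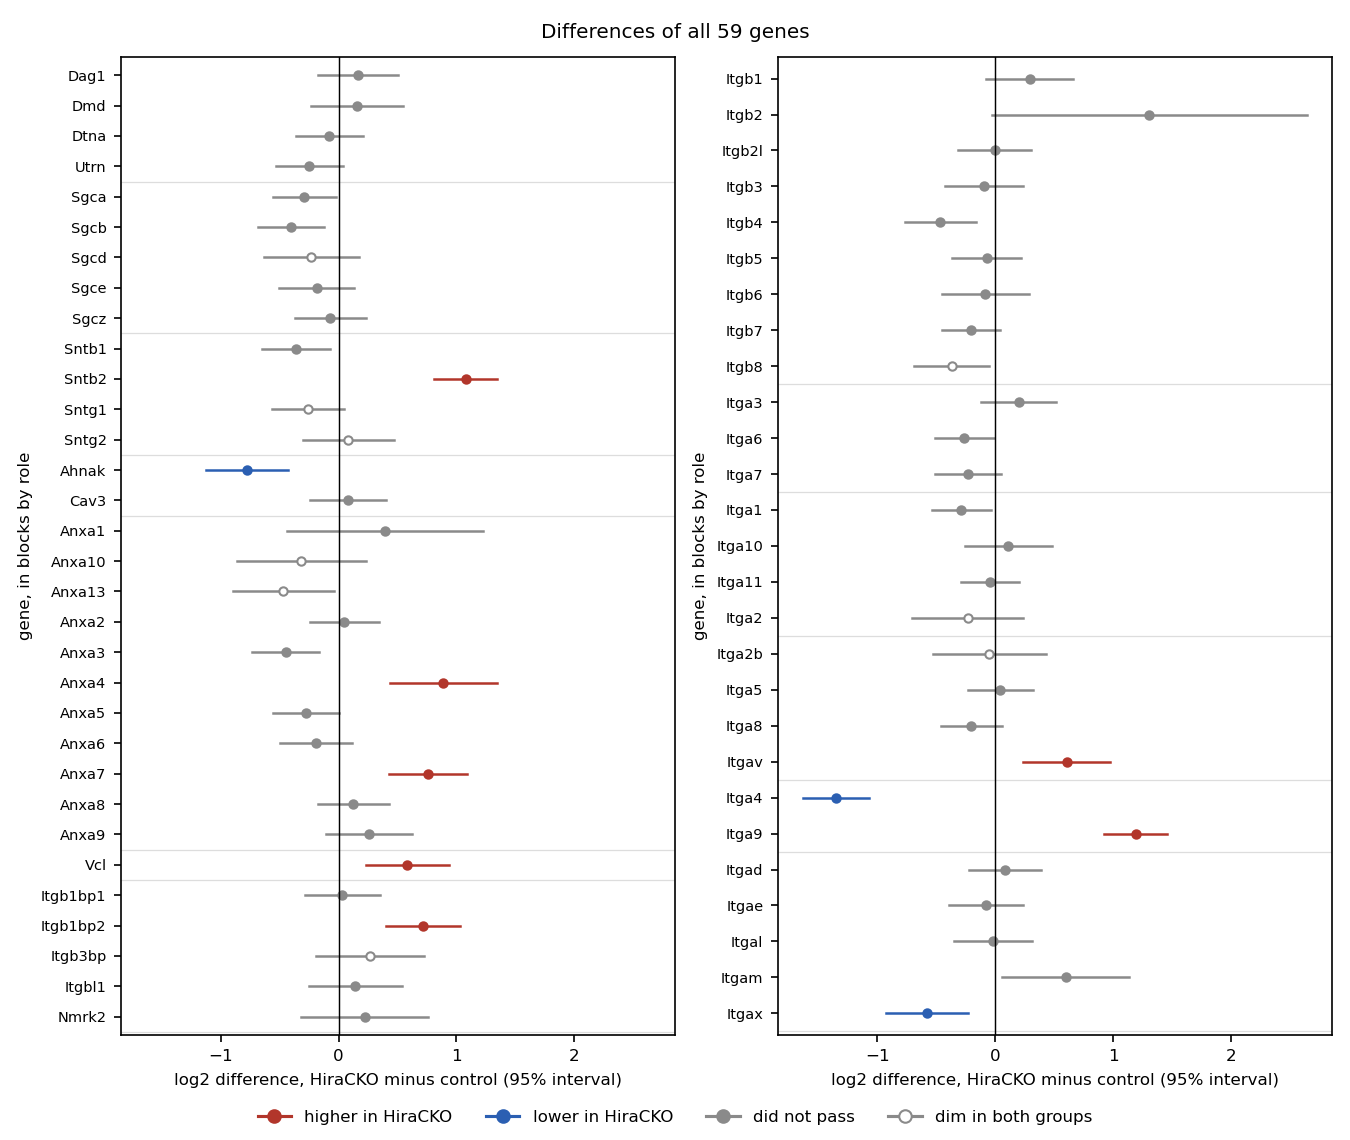
Log2 difference, HiraCKO minus control, with its 95% interval for each of the 59 genes (vertical axis, in blocks by role), from limma on 4 animals per group. Red genes were higher and blue genes lower at an adjusted p under 0.05, grey genes did not pass, and open points mark the 9 genes that were dim in both groups; Itga4 (-1.35) and Itga9 (1.19) lie farthest out among the genes that passed.

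In the dystrophin core, 0 of 4 genes passed the test, beside 9.28% of all genes. Dystrophin (Dmd), the actin-binding rod, had an intensity of 9512, 11705, 10915 and 11394 in HiraCKO animals, against 12715, 11665, 7316 and 8232 in control animals. The control animals spanned the HiraCKO values, and the difference of 0.16 had a 95% interval of -0.23 to 0.55 (limma, adjusted p = 0.624). Utrophin (Utrn), the dystrophin relative of the neuromuscular junction, differed by -0.25 (interval -0.53 to 0.04), and dystroglycan (Dag1) by 0.16 (-0.17 to 0.50). Alpha-dystrobrevin (Dtna) differed by -0.08 in its brighter row and by -0.65 ± 0.17 in a second row (adjusted p = 0.0455 in limma's fit of all 26423 rows). Its rows thus gave the same sign and different sizes.

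The 5 sarcoglycan genes measured all had negative differences, and 0 passed. Among all 17742 genes tested, 10588 had negative differences and 9.28% passed in either direction. Beta-sarcoglycan (Sgcb), a core subunit, came closest, with 8100, 8030, 7865 and 7988 in HiraCKO animals, against 12914, 10588, 8961 and 10142 in control animals. The HiraCKO animals lay within a narrow band below every control animal. Its log2 difference was -0.40 ± 0.13 (limma, adjusted p = 0.0737), and its second row gave -0.50 ± 0.12 (adjusted p = 0.0280 in the fit of all rows). Alpha-sarcoglycan (Sgca), the subunit made only in striated muscle, had 32921, 30398, 29603 and 31977 in HiraCKO animals, against 40994, 44257, 34049 and 34435 in control animals. These groups did not overlap either, and its 3 rows gave -0.29, -0.33 and -0.40, none of which passed. Epsilon-sarcoglycan (Sgce) differed by -0.19 ± 0.14, zeta-sarcoglycan (Sgcz) by -0.07 ± 0.14 and delta-sarcoglycan (Sgcd), which was dim in both groups, by -0.23 ± 0.18.

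Beta-2 syntrophin (Sntb2), which is concentrated with utrophin at the neuromuscular junction, rose 2.11-fold. It had 509, 637, 578 and 659 in HiraCKO animals, against 303, 252, 282 and 289 in control animals, so that every HiraCKO animal lay above every control animal (log2 difference 1.08 ± 0.12, SE, n = 4 per group; limma, adjusted p = 0.000354). Beta-1 syntrophin (Sntb1) pointed the other way without passing, at -0.36 ± 0.13 (adjusted p = 0.113). The gamma syntrophins Sntg1 and Sntg2 were dim in both groups.

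**Figure D2:**
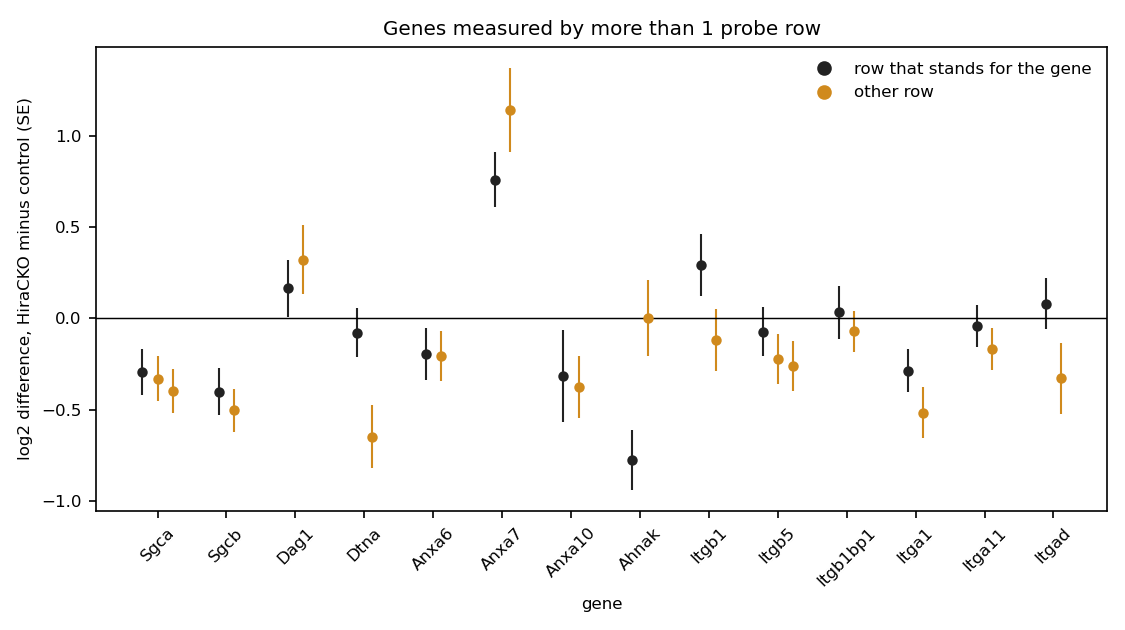
Log2 difference, HiraCKO minus control, with its SE for each probe row of the 14 genes that had more than 1 row; the dark point is the brightest row, which stands for the gene, and the orange points are its other rows. All rows of a gene had 1 sign in 10 of the 14 genes; the 3 rows of Sgca and the 2 rows of Sgcb all lie below 0, while the second row of Ahnak lies at 0.00.

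Among the membrane repair genes, Ahnak, a giant scaffold protein that binds dysferlin and annexin A2, fell 1.71-fold. Its intensity was 2160, 2326, 1951 and 2190 in HiraCKO animals, against 3917, 4896, 3332 and 2891 in control animals. The groups did not overlap, and the control animals were the more scattered (-0.78 ± 0.16; limma, adjusted p = 0.0122). A second Ahnak row was dim in both groups and differed by 0.00, and with the mean of both rows the difference was -0.39 and did not pass (adjusted p = 0.0667). Caveolin-3 (Cav3), the caveola protein of muscle, differed by 0.08 (interval -0.24 to 0.40).

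Of the 11 annexin genes, 2 (18.2%) rose and 0 fell, beside 4.28% higher and 5.01% lower among all genes tested. Anxa7, a calcium- and GTP-dependent membrane fusion protein, had 19992, 29568, 23839 and 22709 in HiraCKO animals, against 17092, 13942, 12604 and 12923 in control animals. The groups did not overlap, and the rise was 1.69-fold (0.76 ± 0.15; limma, adjusted p = 0.00981), with 1.14 ± 0.23 in a second, dimmer row. Anxa4, another calcium-dependent phospholipid binder, had 4945, 10216, 8143 and 6604 in HiraCKO animals, against 3889, 3272, 4680 and 3880 in control animals. HiraCKO animal 1 lay only just above the highest control animal. The rise was 1.85-fold (0.89 ± 0.21; adjusted p = 0.0216), and it no longer passed without HiraCKO animal 3 (0.83; adjusted p = 0.0621) or without control animal 1 (0.89; adjusted p = 0.0617).

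The annexins best known from membrane repair did not pass. Anxa2 differed by 0.05 (interval -0.25 to 0.34), Anxa5 by -0.28 (-0.56 to 0.01) and Anxa6 by -0.19 (-0.50 to 0.11). Anxa3 was lower in every HiraCKO animal (1841, 2151, 1948 and 1558) than in any control animal (2249, 2582, 2771 and 2583) and missed the threshold (-0.45 ± 0.13; limma, adjusted p = 0.0544). Anxa1, which neutrophils and macrophages also make in quantity, had 3795, 5099, 17610 and 5286 in HiraCKO animals, against 4578, 4619, 5413 and 5265 in control animals. HiraCKO animal 3 alone stood above the rest. The difference was 0.39 ± 0.38 (adjusted p = 0.554), and -0.08 without that animal. Anxa8 (0.12) and Anxa9 (0.26) did not pass, nor did Anxa10 (-0.31) and Anxa13 (-0.47), which were dim in both groups.

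On the inner side of the integrin system, vinculin and melusin rose. Melusin (Itgb1bp2), a striated-muscle protein that binds the tail of the beta-1 integrin chain, had 23230, 33233, 24700 and 32449 in HiraCKO animals, against 17096, 16673, 15995 and 18554 in control animals. The groups did not overlap, and the rise was 1.64-fold (0.72 ± 0.14; limma, adjusted p = 0.0101). Vinculin (Vcl), the actin linker of costameres and adhesion sites, had 15111, 25181, 19486 and 22276 in HiraCKO animals, against 15332, 12777, 12677 and 13144 in control animals. It was the 1 gene of the 10 in which the groups overlapped, since HiraCKO animal 1 lay just below control animal 1. Its log2 difference was 0.58 ± 0.16 (adjusted p = 0.0424). Leaving out 1 animal kept the vinculin call only for HiraCKO animal 1 (0.72; adjusted p = 0.0131); without any other animal the difference was 0.48 to 0.65 and the adjusted p reached 0.0972. The other integrin-named genes, Itgb1bp1, Itgb3bp, Itgbl1 and the kinase gene Nmrk2 (annotated under its older symbol ITGB1BP3), had differences of 0.03 to 0.27 and did not pass.

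The promoter of Vcl is shown because it carries a CArG box, the site bound by serum response factor, in the 250 bases before the annotated start, and that of Dmd because it carries one too although Dmd did not pass. Sequences are RefSeq's, of build GRCm38.p6, 5′ to 3′ on the plus strand, at chr14:20929148-20929397 for Vcl and chrX:82948620-82948869 for Dmd, and the CArG box is in capitals.
Vcl: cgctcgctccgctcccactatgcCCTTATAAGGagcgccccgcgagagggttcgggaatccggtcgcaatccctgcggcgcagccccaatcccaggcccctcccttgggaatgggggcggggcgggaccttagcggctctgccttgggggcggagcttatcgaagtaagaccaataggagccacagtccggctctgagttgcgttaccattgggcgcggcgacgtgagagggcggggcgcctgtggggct
Dmd: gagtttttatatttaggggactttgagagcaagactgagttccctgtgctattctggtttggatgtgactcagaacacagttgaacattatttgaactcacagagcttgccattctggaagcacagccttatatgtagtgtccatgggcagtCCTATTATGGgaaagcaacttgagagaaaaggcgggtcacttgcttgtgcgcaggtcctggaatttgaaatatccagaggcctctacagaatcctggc
A CArG box on either strand was present in 1.47% of the 32851 starts of all genes and in 3 of 49 starts of the genes studied here, the third being Itgb6, which did not pass. The match is a description of the letters and not evidence of binding.

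Of the 9 integrin beta chains, 0 passed, beside 9.28% of all genes. The beta-1 chain (Itgb1), the partner of most alpha chains in muscle, had 21855, 32594, 24585 and 26138 in HiraCKO animals, against 26623, 23526, 17696 and 18334 in control animals. The groups overlapped (0.29 ± 0.17; limma, adjusted p = 0.314), and a second, dimmer row gave -0.12. Itgb4, which pairs with Itga6 as a laminin receptor of epithelial and Schwann cells, had 1561, 1353, 1294 and 1081 in HiraCKO animals, against 1595, 2000, 1842 and 1823 in control animals. The groups did not overlap, and the difference of -0.46 ± 0.14 missed the threshold (adjusted p = 0.0561). The remaining beta chains were Itgb2 (described with the leukocyte chains), Itgb2l, Itgb3, Itgb5, Itgb6, Itgb7 and Itgb8, of which all but Itgb2 had differences between -0.37 (Itgb8, dim) and -0.01 (Itgb2l).

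The widest differences among the 10 genes that passed were those of the closely related alpha chains Itga4 and Itga9, which moved in opposite directions. The integrins they form with the beta-1 chain share ligands such as VCAM-1 and osteopontin. Itga4, best known from leukocytes and developing muscle, had 271, 273, 307 and 331 in HiraCKO animals, against 837, 657, 696 and 829 in control animals. It fell 2.55-fold (-1.35 ± 0.13; limma, adjusted p = 0.000132). Itga9 had 1594, 1802, 1533 and 1485 in HiraCKO animals, against 680, 735, 786 and 613 in control animals. It rose 2.28-fold (1.19 ± 0.12; adjusted p = 0.000198). In both genes the groups were far apart relative to their spread, each gene had 1 probe row, and both calls held without any 1 of the 8 animals. Their beta partners differed less: Itgb1 as above, and Itgb7, which pairs with Itga4, by -0.21 (interval -0.45 to 0.04). Itgb7 was named after its values were seen.

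The promoters of these chains are shown as those of the most widely separated pair, with the E-box (CANNTG, the core of sites for myogenic bHLH factors) in capitals. The windows are the 250 bases before the start in RefSeq's build GRCm38.p6, plus strand, at chr2:79255176-79255425 for Itga4 and chr9:118711442-118711691 for Itga9.
Itga4: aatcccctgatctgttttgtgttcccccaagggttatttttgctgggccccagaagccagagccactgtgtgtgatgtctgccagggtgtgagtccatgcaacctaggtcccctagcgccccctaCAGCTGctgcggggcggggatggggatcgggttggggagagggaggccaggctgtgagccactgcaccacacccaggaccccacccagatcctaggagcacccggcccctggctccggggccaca
Itga9: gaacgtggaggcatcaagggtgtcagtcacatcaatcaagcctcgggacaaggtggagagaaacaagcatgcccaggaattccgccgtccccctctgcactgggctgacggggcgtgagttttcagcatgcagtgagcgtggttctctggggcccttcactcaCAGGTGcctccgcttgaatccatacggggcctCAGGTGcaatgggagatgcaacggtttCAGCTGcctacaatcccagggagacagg
The Itga4 window held 1 E-box and the Itga9 window 3. An E-box, which reads alike on both strands, was present in 66.2% of all starts and in 69.4% of the 49 starts of the genes studied, so its presence sets neither apart. RefSeq's table matched 41 of the 59 genes, 8 of the 10 that passed among them; Sntb2 and Itgb1bp2 were not matched.

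**Figure D3:**
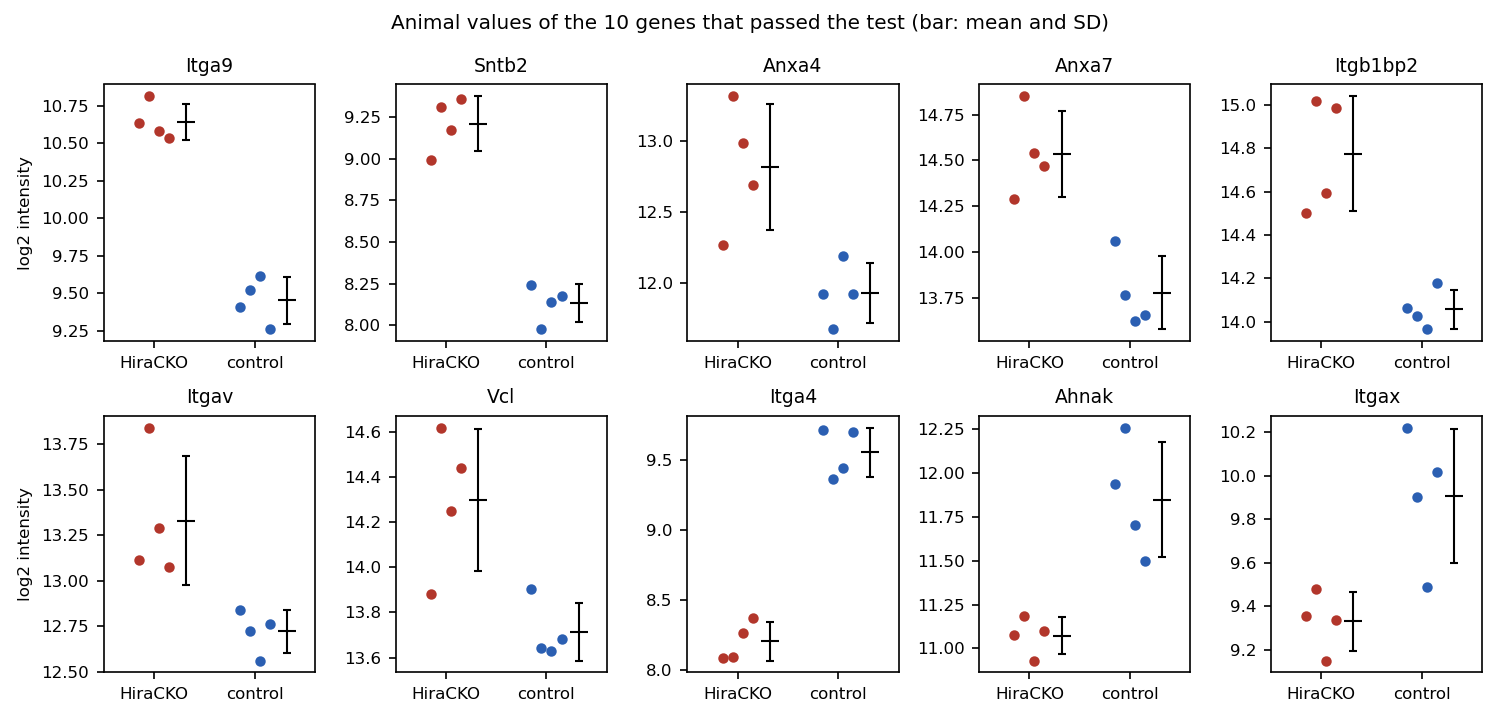
Log2 intensity of the 10 genes that passed the test, 1 point per animal (mean of 3 hybridisations), HiraCKO animals left and control animals right, with the group mean and SD beside them. The groups do not overlap in 9 of the 10 panels; in Vcl, HiraCKO animal 1 lies just below control animal 1.

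Among the other alpha chains of fibres and vessels, Itgav, whose integrins bind vitronectin and fibronectin, rose. It had 8875, 14671, 9997 and 8628 in HiraCKO animals, against 7335, 6764, 6044 and 6950 in control animals, and the groups did not overlap. Its rise was 1.52-fold (0.61 ± 0.17; limma, adjusted p = 0.0456), and HiraCKO animal 2 was the highest. Leaving out 1 animal kept the Itgav call only for HiraCKO animal 4 (adjusted p = 0.0432); without any other the difference was 0.44 to 0.68 and the adjusted p reached 0.108. The laminin receptor chain of fibres, Itga7, had 5875, 6839, 5449 and 5857 in HiraCKO animals, against 8326, 6420, 7058 and 6421 in control animals. HiraCKO animal 2 lay among the control animals, and the difference of -0.23 (interval -0.51 to 0.05) did not pass. Itga3 (0.20), Itga5 (0.04), Itga10 (0.11) and Itga11 (-0.04) also did not pass, and Itga2 (-0.23) and Itga2b (-0.05) were dim in both groups.

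Itga1, Itga6 and Itga8, named after their values were seen, had groups that did not overlap and did not pass. Itga6 had 2464, 2813, 2696 and 2694 in HiraCKO animals, against 3251, 3645, 3049 and 2873 in control animals (-0.26 ± 0.12; limma, adjusted p = 0.193). The collagen receptor chain Itga1 differed by -0.29 ± 0.11 (adjusted p = 0.150). A second, dimmer Itga1 row gave -0.52 ± 0.14 (adjusted p = 0.0504 in limma's fit of all rows). Itga8, a chain of smooth muscle and other contractile cells, differed by -0.20 ± 0.12 (adjusted p = 0.321). Some endothelial, smooth muscle and Schwann cell markers fell in the same comparison: 3 of 12 (25%), 3 of 7 (42.9%) and 2 of 5 (40%) markers measured. Among all genes tested 5.01% fell, and 0 markers rose in any of the 3 lists. The summed intensity of 12 endothelial markers (of 12) was 77110 to 107647 in HiraCKO animals, against 115507 to 146510 in control animals, with none dim. That of 7 smooth muscle and pericyte markers (of 9) was 29497 to 33981 in HiraCKO and 38719 to 47792 in control animals, with Cnn1 dim. That of 5 Schwann cell markers (of 8) was 18190 to 23562 in HiraCKO and 23354 to 32844 in control animals, with none dim; these ranges overlap, while those of the other lists do not. The part of these cells in the values of Itga1, Itga6, Itga8 and Itgb4 was not tested.

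Of the 5 leukocyte alpha chains, Itgax alone (20%) passed the test, beside 9.28% of all genes. Itgax (CD11c), an alpha chain of dendritic cells and macrophages, had 655, 713, 568 and 647 in HiraCKO animals, against 1194, 956, 718 and 1036 in control animals. HiraCKO animal 2 lay only just below control animal 3. The fall was 1.49-fold (-0.58 ± 0.16; limma, adjusted p = 0.0439), and leaving out 1 animal kept the call only for control animal 3 (-0.72; adjusted p = 0.0140); without any other the difference was -0.47 to -0.63 and the adjusted p reached 0.125. Its beta partner Itgb2 (CD18) had 876, 1426, 9046 and 965 in HiraCKO animals, against 531, 626, 881 and 988 in control animals. HiraCKO animal 3 stood far above the other animals of both groups. The difference of 1.31 ± 0.61 did not pass (adjusted p = 0.216) and was 0.54 without that animal (adjusted p = 0.255). Itgam (CD11b), the alpha chain of monocytes and neutrophils, had 482, 795, 1130 and 622 in HiraCKO animals, against 392, 417, 494 and 639 in control animals. It did not pass either (0.60 ± 0.25; adjusted p = 0.163), and was 0.38 without HiraCKO animal 3. With all 24 arrays fitted singly and the animal as a random block, both passed (limma, adjusted p = 0.0383 for Itgb2 and 0.00973 for Itgam). That fit uses 1 correlation between arrays of an animal for all genes. The SD between animals was 1.15 for Itgb2 and 0.43 for Itgam, against 0.33 and 0.078 between hybridisations. The medians over all genes were 0.20 and 0.18. For Itgb2 and Itgam the fit thus counts arrays of 1 animal partly as separate replicates, and these passes carry little weight. Itgal, Itgad and Itgae differed by -0.07 to 0.08 and did not pass.

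Markers of blood, satellite and connective tissue cells stood beside these values as follows. Among all genes tested, 4.28% rose and 5.01% fell. The summed intensity of 11 myeloid markers (of 13) was 24150, 32663, 57075 and 29833 in HiraCKO animals, against 18972, 23237, 29084 and 41236 in control animals, with none dim and HiraCKO animal 3 the highest. The groups overlapped. Of the 11, 0 rose and Cd163, the haemoglobin scavenger receptor of resident macrophages, fell (-0.93 ± 0.26; limma, adjusted p = 0.0490). That of 6 T and NK cell markers (of 7) was 2756 to 2979 in HiraCKO and 2048 to 2273 in control animals, with Klrd1 and Nkg7 dim, and Cd3e rose 1.51-fold (adjusted p = 0.00629). Cd3e gave the largest part of the T and NK cell sum (1599 in HiraCKO and 1056 in control muscle, group geometric means). The sum of 7 satellite cell markers (of 8), muscle's stem cells, was 18351 to 25348 in HiraCKO and 25424 to 26646 in control animals. Cd34 gave most of that sum (13154 in HiraCKO and 16490 in control muscle, group geometric means). Of the 7, 1 fell, Calcr, which was dim in HiraCKO alone, and none was dim in both groups. Pax7 differed by 0.24 without passing, and the other 6 had negative differences. Neutrophil markers (5 of 6 measured, S100a8 dim) summed to 792 to 1112 in HiraCKO and 1059 to 1227 in control animals. The sum of 2 red blood cell markers (of 5) was 1189 to 2586 in HiraCKO and 2814 to 3916 in control animals, with no overlap. Of these, Alas2, the erythroid enzyme of haem synthesis, fell 2.06-fold (limma, adjusted p = 0.0189), and Slc4a1, which was dim in HiraCKO alone, did not pass. The sums of 6 platelet markers (4232 to 5401 in HiraCKO and 4454 to 7577 in control animals) and of 9 fibroblast markers (141466 to 263604 in HiraCKO and 161908 to 239214 in control animals, Col1a1 dim) overlapped, and 0 of these markers passed by limma (1 and 4 had an unadjusted p under 0.05). Dcn gave most of the fibroblast sum (159727 in HiraCKO and 167246 in control muscle, group geometric means). The part of these blood, satellite and connective tissue cells in the values of Itga4, Itga7, Itgax, Itgam, Itgb2 and Anxa1 was not tested.

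**Figure D4:**
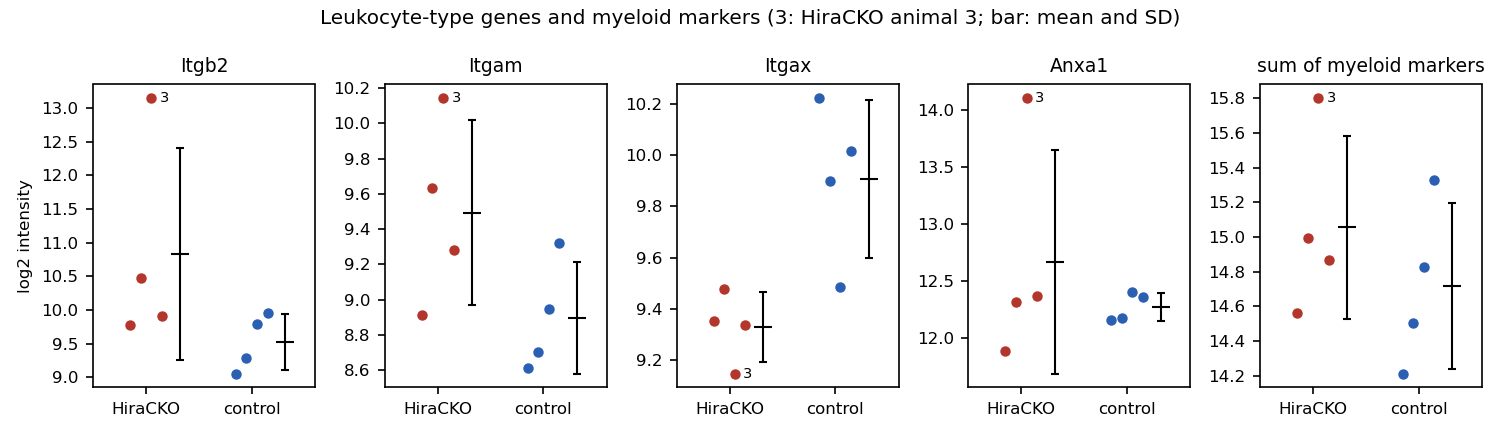
Log2 intensity of Itgb2, Itgam, Itgax and Anxa1 and of the sum of 11 myeloid markers, 1 point per animal, HiraCKO left and control right, with group mean and SD; the number 3 marks HiraCKO animal 3. That animal is the highest of all in every panel except Itgax, in which it is the lowest.

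Genes of the same pathways outside the 59 were counted in short lists, beside 9.28% of all genes that passed in either direction. The share that passed was 4.35% of integrin adaptor and focal adhesion genes. It was 20% of further dystrophin complex genes and 16.7% of dystroglycan glycosylation genes. Of 23 integrin adaptor and focal adhesion genes (of 25 listed), 1 rose and 0 fell: Tns1, a tensin that joins integrin tails to actin, rose 1.47-fold (0.56 ± 0.16; limma, adjusted p = 0.0464), a call kept without HiraCKO animal 1 alone, with an adjusted p of up to 0.103 without any other animal. Of 10 further genes of the dystrophin complex (of 12), 1 rose and 1 fell. Beta-dystrobrevin (Dtnb) rose 1.68-fold, with 2589 in HiraCKO against 1539 in control muscle (group geometric means; adjusted p = 0.0130), and Krt19, a keratin that binds dystrophin at costameres, fell 1.46-fold, with 442 in HiraCKO against 644 in control muscle (adjusted p = 0.0126).

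Of 12 dystroglycan glycosylation genes (of 17), 1 rose and 1 fell. Pomgnt2, which extends the O-mannose glycan of dystroglycan, rose 1.52-fold to 5183 in HiraCKO, against 3419 in control muscle (0.60 ± 0.11; limma, adjusted p = 0.00542). Rxylt1, which adds xylose farther along the same laminin-binding glycan, fell 1.44-fold to 4427 in HiraCKO, against 6367 in control muscle (-0.52 ± 0.10; adjusted p = 0.00928). In both genes the groups did not overlap. Among 17 basement membrane ligand genes (of 17) 0 passed by limma and 7 (41.2%) had an unadjusted p under 0.05, against 24% of all genes tested. The smallest p was that of the laminin chain Lamb2 (0.39 ± 0.13; adjusted p = 0.0831). Among 12 membrane repair partners (of 17) 0 passed by limma and 1 (8.33%, against the same 24%) had an unadjusted p under 0.05, the calpain gene Capn1 (0.38 ± 0.12; adjusted p = 0.0689).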

How the data were processed

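Total RNA of tibialis anterior muscle was labelled and hybridised; the label field names Cy3 and the labelling protocol Cy5. Each deposited column gave linear intensities of 26423 probe rows on 1 array. All columns had a median of 626.429, so per the deposited values the authors had scaled them to a common median, and 0% to 5.37% of an array's values lay at or below 0. No source used here names the scanner or a background correction.

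Intensities under the 5th percentile of all values, 38.8, were raised to it. Values were then put on the log2 scale and averaged over the 3 arrays of an animal. Symbols (1 for 20377 rows, none for 6046) were updated through RefSeq's GRCm38.p6 gene table (18213 matched a symbol, 2126 a synonym, 38 neither), and the brightest row stood for a gene. limma 3.58.1 in R 4.3.3 compared the groups, with Benjamini-Hochberg adjustment over 17742 genes; the fit was tested on simulated data. Levels of different probes were compared only in ranking the rows of a gene by brightness and in the marker sums. The genes and lists were chosen with earlier results of these data known. Named are the genes that passed, a list of core genes, the 3 nearest to passing, the leading genes of each pathway list, and others where stated.

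Animals are numbered as a name only. Alternatives were other normalizations, floors, row rules, dim filters and variance settings, single arrays in a mixed fit by animal, the series of animal numbers, and leaving out each animal or hybridisation.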

Additional observations from a re-analysis of the deposited data

Results flagged for a closer look

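Among the genes named, 84 groups of 4 animals were looked at for 1 animal far from the other 3, and 2 were found; chance alone picks out about 1 in 20 groups. Control animal 1 had an Itga8 log2 intensity of 8.82, against 8.54 to 8.57 in the other control animals, and without it the Itga8 difference was -0.14 in place of -0.20. Control animal 3 had a Pomgnt2 log2 intensity of 11.60, against 11.77 to 11.80 in the other control animals, and all HiraCKO animals lay above these.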

How the results depend on the processing

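Itga4, Itga9, Sntb2 and Anxa7 kept their direction and passed under 24 of 25 alternatives, Itgb1bp2 under 23, Ahnak under 22, Anxa4 under 19, and Vcl, Itgav and Itgax under 12 each. The losses of the first 4 came with the lower series of animal numbers alone, in which 0 of the 59 genes rose and 0 fell (62 of all genes passed); in the higher series alone 3 rose and 1 fell (508 of all). Of the named genes that did not pass, Anxa3 and Capn1 passed under 10 alternatives each, Itgb4 and Lamb2 under 9, Sgcb under 7, Itga6, Itgam and Itgb2 under 2 and Anxa5 under 1. Over the 25 alternatives the log2 difference of Itga4 ran from -1.45 to -0.84 and that of Itga9 from 0.93 to 1.28. That of Sntb2 ran from 0.64 to 1.15 and that of Anxa7 from 0.66 to 0.95. The main counts were 7 higher and 3 lower, and 1647 of all genes. The lower count was 7 under quantile normalization (2569 of all genes), 5 with dim rows left out, 6 with an intensity trend and robust variances, 6 with an added constant, and 9 with array weights (3609 of all). With all arrays and the animal as a random block it was 8 (3149 of all). With the hybridisation number as a replicate block too it was 7 (2978 of all). The higher count was 9 in both, with Itgb2 and Itgam added. For Itgb2 and Itgam such a fit counts arrays of 1 animal partly as separate replicates, as described above. Arrays of 1 hybridisation number had deviations that correlated between groups by 0.0709, 0.457 and 0.17 over genes. All were positive, and what arrays of 1 number share was not tested. The main fit averaged each animal over its 3 hybridisations and did not use the number as a pairing. The higher count was 4 with a floor at 125. Leaving out 1 animal or hybridisation number gave 4 to 7 higher and 2 to 5 lower genes, and 945 to 1693 of all. Some genes that did not pass turned sign, still without passing: Dmd (-0.21), Sgcd (0.053), Anxa1 (-0.064) and Anxa2 (-0.056) in the lower series, Cav3 in the higher series (-0.049), and Dtna (0.013) and Cav3 (-0.090) with array weights. Over the fits without 1 animal or hybridisation number, Dtna ran from -0.17 to 0.0065, Cav3 from -0.024 to 0.17, Anxa1 from -0.083 to 0.65 and Anxa2 from -0.017 to 0.15. Where intensities lie near the background, as in the 9 dim genes, a difference could be missed.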
